A study of Mus musculus with 4 samples.

Results

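The genes described here make cholesterol, sense it, or move it out of lysosomes and cells, and they were taken by symbol from the count table of a mouse RNA sequencing study. A fixed list of 32 mouse symbols was matched through Entrez gene identifiers, and all 32 were found among the 24415 genes of the table. They fall into 8 enzymes of the mevalonate and isoprenoid steps, 12 enzymes from squalene to cholesterol, 8 regulators and 4 genes of efflux and lysosomal export. Not every enzyme or receptor of the pathway is on the list. RNA came from bone marrow cells enriched with CD117 (KIT) microbeads, a selection for hematopoietic stem and progenitor cells, of mice with an inducible, constitutively active form of HIF-1α and of wild-type mice. HIF-1α is the part of the HIF-1 transcription factor that oxygen destabilises, and the series title links its activation to myelodysplastic syndrome. Both genotypes were on a C57BL/6 and 129X1/SvJ background, with 2 libraries each. The sources used here do not give the promoter or recombinase behind the induction, the age of the mice or the time after induction. They also do not say whether each library is a mouse of its own, and the p-values then describe only library-to-library spread, which may be technical.

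Cells build cholesterol from acetyl-CoA through mevalonate, farnesyl diphosphate and squalene, and the same route supplies isoprenoids for protein prenylation, dolichol and ubiquinone. When membranes of the endoplasmic reticulum are low in sterol, SCAP carries SREBP-2 and SREBP-1 to the Golgi for cleavage, and the released factors switch on the synthesis genes; INSIG proteins hold SCAP back when sterol is plentiful. When oxysterols accumulate, the nuclear receptors LXRα and LXRβ switch on the export pumps ABCA1 and ABCG1 and the ubiquitin ligase MYLIP, which removes lipoprotein receptors. In bone marrow, macrophages are known for high cholesterol export, and maturing red cell precursors need membrane sterol. SREBP-2 works at many of its promoters beside the CCAAT-binding factor NF-Y. An oxygen link is built into the route, since squalene epoxidation and sterol demethylation consume molecular oxygen.

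Promoters of the genes with the widest differences in each direction, and of Mvd, whose values ran against those of its pathway neighbour Idi1, are printed to show the letters upstream of them. Each runs from 250 bases before to 50 bases after a RefSeq transcription start (GRCm38.p6, gene strand), and capitals mark CCAAT or its reverse complement ATTGG and the hypoxia response core ACGTG or its reverse complement CACGT. The windows are Idi1 at chr13:8885356-8885655 (plus strand), Mvd at chr8:122443373-122443672 (minus strand), Mylip at chr13:45389492-45389791 (plus strand) and Abca1 at chr4:53159846-53160145 (minus strand).
Idi1: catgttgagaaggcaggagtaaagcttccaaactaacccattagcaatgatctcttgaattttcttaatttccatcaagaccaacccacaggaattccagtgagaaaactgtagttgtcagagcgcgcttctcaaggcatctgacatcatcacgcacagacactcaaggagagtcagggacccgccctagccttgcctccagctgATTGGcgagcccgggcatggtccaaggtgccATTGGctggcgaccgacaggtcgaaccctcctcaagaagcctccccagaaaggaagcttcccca
Mvd: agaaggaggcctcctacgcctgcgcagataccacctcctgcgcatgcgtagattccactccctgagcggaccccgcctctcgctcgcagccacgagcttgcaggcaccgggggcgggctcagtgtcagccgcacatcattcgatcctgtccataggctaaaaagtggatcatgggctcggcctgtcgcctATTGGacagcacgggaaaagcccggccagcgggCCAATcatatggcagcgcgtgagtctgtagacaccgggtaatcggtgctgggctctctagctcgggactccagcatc
Mylip: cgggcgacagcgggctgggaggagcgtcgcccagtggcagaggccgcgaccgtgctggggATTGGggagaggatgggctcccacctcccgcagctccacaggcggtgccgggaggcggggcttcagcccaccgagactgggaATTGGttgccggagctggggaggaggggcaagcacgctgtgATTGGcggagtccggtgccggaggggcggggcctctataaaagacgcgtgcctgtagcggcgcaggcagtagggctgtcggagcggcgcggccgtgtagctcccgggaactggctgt
Abca1: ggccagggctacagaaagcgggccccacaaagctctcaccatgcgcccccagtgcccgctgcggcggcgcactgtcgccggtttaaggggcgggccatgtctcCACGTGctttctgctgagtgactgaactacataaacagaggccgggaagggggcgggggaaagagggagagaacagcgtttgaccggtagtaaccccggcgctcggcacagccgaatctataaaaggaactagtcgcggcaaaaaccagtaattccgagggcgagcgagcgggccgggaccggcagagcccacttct
Idi1 holds CCAAT boxes at -45 and -14 from the start, Mvd at -60 and -27, and Mylip at -190, -108 and -67. Abca1 holds none, and its capitals are the palindrome CACGTG, an E-box, in which the hypoxia core is read once on each strand. RefSeq windows were at hand for 27 of the 32 genes, 36 windows in all. CCAAT, on either strand, was in 23 of these 36 windows (63.9%) and in 37.4% of 32851 windows of all genes. The letters CACCCCAC, the core of the classic sterol response element, were in 2 of 36 windows, those of Hmgcs1 and Acat2, against 2.87% of all windows. ACGTG was in 7 of 36 windows (19.4%), against 19.6% of all windows. A match is a string of letters and not a measured binding site.

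Total counts were between 24852965 and 26373177 in the inducible HIF-1α libraries and between 22221798 and 27539149 in the wild-type libraries. Hif1a itself had 155 and 113 CPM (library-size-scaled counts, by TMM) in the inducible HIF-1α libraries and 179 and 168 CPM in the wild-type libraries (log2 fold change -0.38 ± 0.21, SE; edgeR adjusted p = 0.426), and the sources used here do not say whether an induced transcript would be counted there. Of 9 known HIF targets checked, 3 were called higher (Bnip3, Ndrg1 and Plod2, against 0.114% of all tested genes) and none lower. Their fold changes were positive for 6 and negative for 3. Without overlap, 6 of these 9 were higher, against 24.6% of all tested genes, and 2 were lower (Vegfa and Slc2a1), against 28.2%. Kit, the selection marker, had 347 and 390 CPM in the inducible HIF-1α libraries and 268 and 242 CPM in the wild-type libraries. Spread within a genotype, as a biological coefficient of variation, was 33.4% in inducible HIF-1α and 15.1% in wild type. Summed CPM of 16 macrophage and monocyte markers was 353 to 716 in inducible HIF-1α and 1385 to 1476 in wild type, with 9 of 16 called lower, and C1qa, Cd5l and Spic at 0 in inducible HIF-1α library 2. B cell markers summed to 15.5 and 5.31 CPM in inducible HIF-1α and 540.0 and 510.1 CPM in wild type, with 8 of 10 called lower. Called lower were also 2 of 8 T and NK cell and 1 of 6 megakaryocyte markers. Of all tested genes, 1% were called lower. None of 12 stem and progenitor or 10 proliferation genes was called in either direction. For 12 erythroid markers the sums were 4555 and 8394 in inducible HIF-1α and 6992 and 7227 in wild type, with Tfrc called higher and Hba-a1 lower. These sums cover a split list. Without overlap, 6 of 12 were higher (Gata1, Klf1, Tfrc, Ermap, Rhag and Add2), against 24.6% of all tested genes. Another 4 were lower without overlap (Slc4a1, Alas2, Hbb-bt and Hba-a1), against 28.2%. In bulk RNA, fewer cells of a type and less RNA per cell cannot be told apart.

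None of the 32 genes passed an adjusted p of 0.05 in edgeR's quasi-likelihood test over 14043 genes, where 1.12% of all tested genes did (0.114% higher and 1% lower). At an unadjusted p of 0.05, 7 of 32 (21.9%) passed, against 16.9% of all tested genes. Higher among these were Idi1 and Sqle (6.25%, against 5.44% of all genes), and lower were Mvd, Lbr, Mylip, Abca1 and Npc2 (15.6%, against 11.5%). Both libraries of one genotype lay outside both of the other for 14 genes (43.8%), against 52.7% of all tested genes, 4 of them higher in inducible HIF-1α (12.5% against 24.6%) and 10 lower (31.2% against 28.2%). None of these shares sets the list clearly apart from all genes. The median log2 fold change over the 32 genes was -0.06, and over all tested genes it was 0.00. DESeq2 and edgeR's exact test each called the same 4 genes, Idi1 and Sqle higher and Mylip and Abca1 lower (12.5% of the list, against 6.91% and 7.88% of all genes), while limma-voom called none of the list (1.48% of all genes). The quasi-likelihood test also called none of the 32 with DESeq2-type size factors (0.997% of all genes), upper quartile scaling (1.07%), total-count scaling (0.691%), at least 1 CPM in all 4 libraries (0.667%), the 10 most abundant genes left out (0.784%), a replicate block (2.71%), or an adjusted p of 0.01 (0.0712%) or 0.1 (2.91%).

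**Figure D1:**
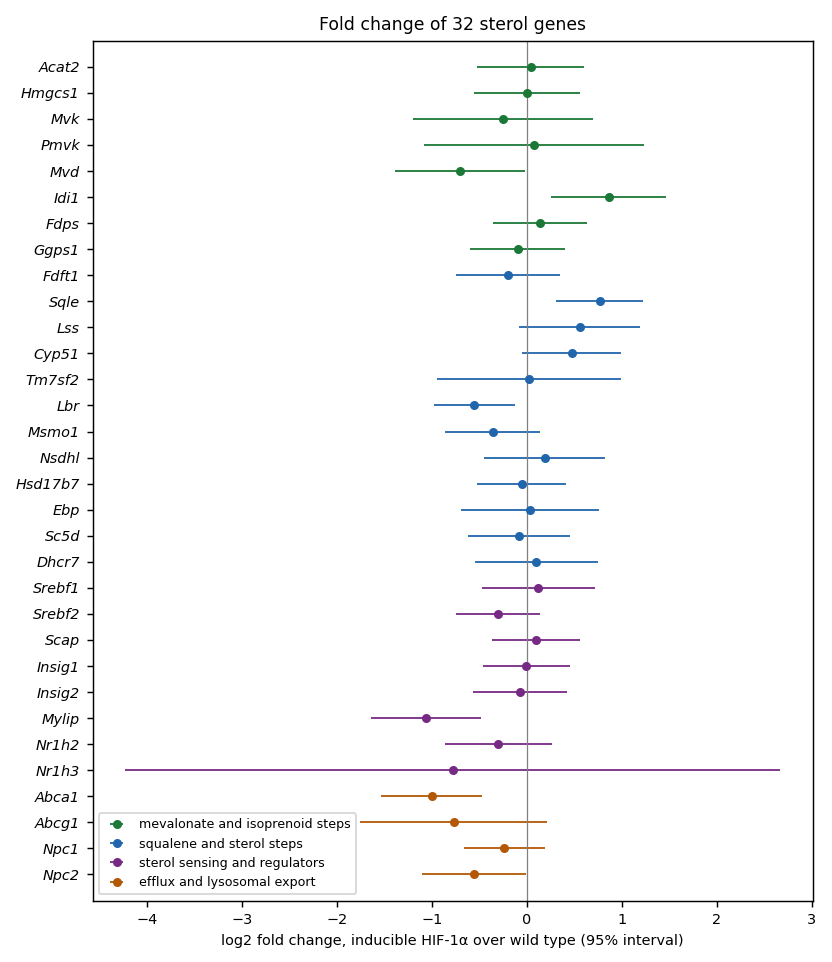
Log2 fold change of each of the 32 genes (points, inducible HIF-1α over wild type) with 95% intervals from the edgeR fit, in pathway order and coloured by role. The intervals of Idi1 and Sqle lie above 0, those of Mvd, Lbr, Mylip, Abca1 and Npc2 lie below 0, and the other 25 cross it.

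In the mevalonate and isoprenoid steps the values diverged within a single branch. Idi1, isopentenyl-diphosphate isomerase, which makes the allylic unit for chain growth (chromosome 13, 8885606 to 8892396), had 100.5 and 139.5 CPM in the inducible HIF-1α libraries and 77.4 and 54.7 CPM in the wild-type libraries. Both inducible HIF-1α values lay above both wild-type values, and the libraries of each genotype were spread by about 1.4 times. Its log2 fold change was 0.86 ± 0.26 (SE; 95% interval 0.25 to 1.47; edgeR adjusted p = 0.178). Mvd, mevalonate diphosphate decarboxylase, which acts just before Idi1, had 6.97 and 6.06 CPM in inducible HIF-1α and 9.93 and 11.3 CPM in wild type. The groups did not overlap, in the opposite direction to Idi1, with a log2 fold change of -0.70 ± 0.29 (interval -1.38 to -0.02; edgeR adjusted p = 0.286).

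The remaining 6 genes of these steps overlapped between genotypes. Mvk, mevalonate kinase, had 4.38 and 3.52 CPM in inducible HIF-1α and 3.73 and 5.68 CPM in wild type (-0.25 ± 0.40, edgeR adjusted p = 0.790). For Fdps, farnesyl diphosphate synthase, the values were 44.7 and 57.1 CPM in inducible HIF-1α and 46.6 and 46.2 CPM in wild type (0.14 ± 0.21, edgeR adjusted p = 0.781). Hmgcs1, HMG-CoA synthase and a textbook SREBP-2 target, had a log2 fold change of 0.00 with a 95% interval of -0.56 to 0.56, from 97.5 and 68.3 CPM in inducible HIF-1α and 90.5 and 75.1 CPM in wild type. Within each genotype Hmgcs1 was higher in library 1 than in library 2. Acat2, the cytosolic thiolase that opens the route, had 34.8 and 49.4 CPM in inducible HIF-1α and 38.9 and 42.9 CPM in wild type. Ggps1, which makes geranylgeranyl diphosphate, had 31.5 and 37.2 CPM in inducible HIF-1α and 34.8 and 38.6 CPM in wild type. Pmvk, phosphomevalonate kinase, showed the largest ratio between the inducible HIF-1α libraries, 2.87, among the 31 genes with counts in every library: 4.73 and 13.6 CPM, on either side of the 8.32 and 9.09 CPM in wild type. Over the 8 genes, 5 fold changes were positive and 3 negative, the median was 0.02, and summed CPM was 325 and 375 in inducible HIF-1α and 310 and 283 in wild type. Of these sums, Idi1 gave 100.5 and 139.5 CPM in inducible HIF-1α and 77.4 and 54.7 CPM in wild type. It was the only 1 of the 8 genes that was higher without overlap.

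Some of these values rest on sequence that other genes share. Of the 50-base words in the longest coding transcript, 45.9% in Acat2 also occur in its neighbouring copy Acat3, 30.5% in Idi1 and 86.4% in Fdps occur in other annotated transcripts, chiefly Gm13502 and Gm43738, and 30.7% in Fdft1 occur elsewhere, most in the overlapping gene Ctsb. The sources used here do not say how such reads were counted, so these 4 values are uncertain. Acat3 had 65.1 and 99.6 CPM in inducible HIF-1α and 72.6 and 73.1 CPM in wild type. Exons of 10 of the 32 genes also overlap exons of a gene on the opposite strand, among them Idi1, Lss, Cyp51, Lbr, Srebf1, Scap and Npc1, and whether counting used strand is likewise not stated.

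**Figure D2:**
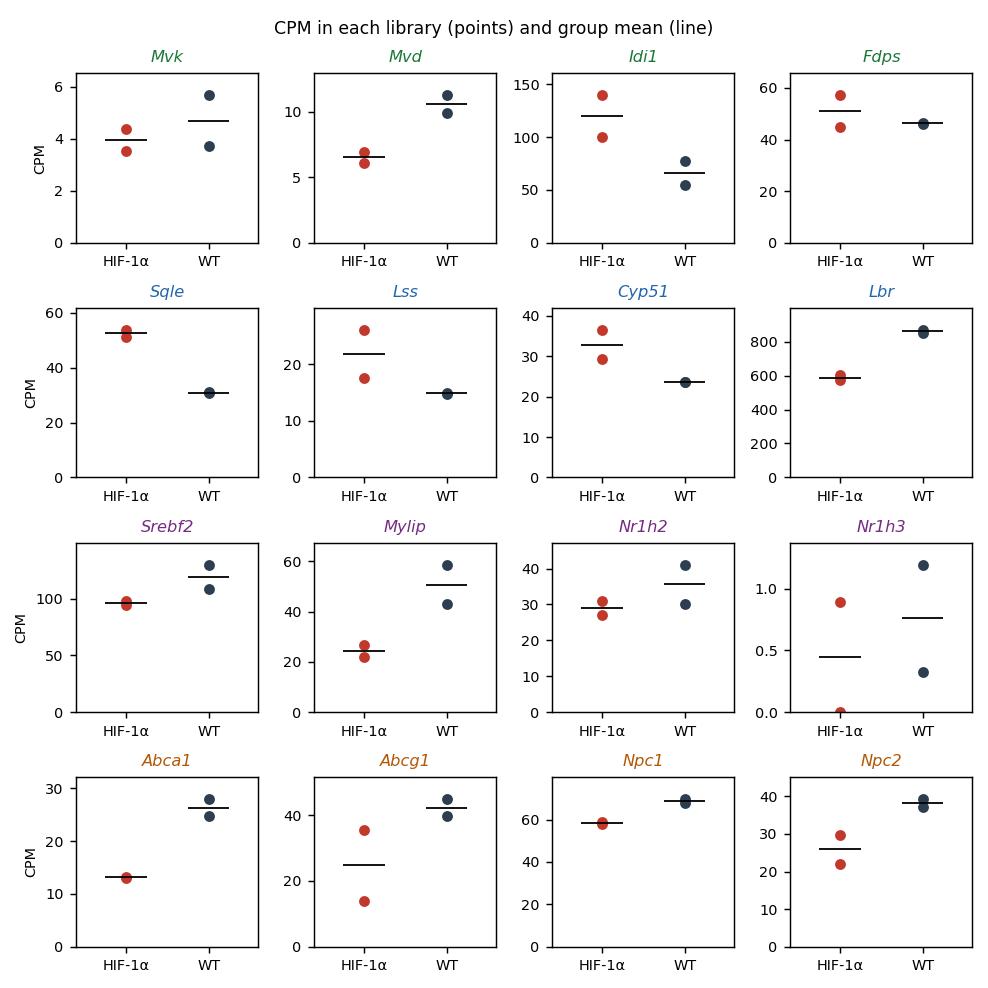
CPM in each library (points) with the group mean (line) for the 16 genes given in full, inducible HIF-1α left of wild type, each panel on its own axis starting at 0. Sqle, Lbr, Abca1 and Npc1 show tight pairs that do not overlap, while Abcg1 and Lss are spread in the inducible HIF-1α libraries.

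From squalene onward, 3 consecutive enzymes were higher in both inducible HIF-1α libraries than in either wild-type library, as were 24.6% of all tested genes. Sqle, squalene epoxidase, a rate-controlling enzyme (chromosome 15, 59315092 to 59331193), had 51.3 and 53.7 CPM in inducible HIF-1α and 30.8 and 31.0 CPM in wild type. The pairs were tight and did not overlap, and the fitted fold was 1.70 (95% interval 1.24 to 2.34), a log2 fold change of 0.77 ± 0.19 (edgeR adjusted p = 0.129). Lss, lanosterol synthase, which closes the rings, had 17.6 and 26.04 CPM in inducible HIF-1α and 14.9 and 14.8 CPM in wild type (0.56 ± 0.27, edgeR adjusted p = 0.352). Cyp51, the lanosterol demethylase, had 29.2 and 36.4 CPM in inducible HIF-1α and 23.7 and 23.6 CPM in wild type (0.47 ± 0.22, edgeR adjusted p = 0.339). In all 3 the higher value came from inducible HIF-1α library 2, by least in Sqle. Erythroid (4555 in library 1 and 8394 in library 2) and proliferation marker sums (4451 and 5478) had that order too. The other marker sums had the reverse order. Among the other synthesis genes, Acat2, Pmvk, Idi1, Fdps, Ggps1, Fdft1, Tm7sf2, Nsdhl, Hsd17b7, Ebp and Dhcr7 were also higher in library 2. Hmgcs1, Mvk, Mvd, Lbr, Msmo1 and Sc5d were lower there. The part of cell types in these values was not tested.

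Lbr, the lamin B receptor, an inner nuclear membrane protein with sterol C14-reductase activity that is also known for shaping neutrophil nuclei (chromosome 1, 181815315 to 181842401), was lower instead. It had 601 and 573 CPM in inducible HIF-1α and 853 and 868 CPM in wild type, a log2 fold change of -0.55 ± 0.18 (interval -0.98 to -0.12; edgeR adjusted p = 0.204). The groups did not overlap, and both pairs were tight. Summed CPM of 12 neutrophil markers was 16106 and 7070 in inducible HIF-1α and 21989 and 20563 in wild type. Of these markers 3 of 12 were called lower, against 1% of all tested genes, and none was at 0 in any library. The part of these cells in the Lbr value was not tested. Tm7sf2, which encodes the other C14 reductase, had 4.11 and 8.12 CPM in inducible HIF-1α and 6.31 and 5.72 CPM in wild type, so the groups overlapped.

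The other enzymes of this stretch gave smaller differences. Msmo1, the C4-methyl sterol oxidase, had 36.5 and 30.1 CPM in inducible HIF-1α and 40.6 and 44.8 CPM in wild type, with no overlap (-0.36 ± 0.21, edgeR adjusted p = 0.440). Fdft1, squalene synthase, at 14.9 and 17.2 CPM in inducible HIF-1α and 18.3 and 18.5 CPM in wild type, did not overlap either (-0.20 ± 0.23, edgeR adjusted p = 0.704). Dhcr7, the reductase of the last step of one branch, had 30.0 and 49.2 CPM in inducible HIF-1α, on either side of 37.0 and 36.8 CPM in wild type. The other 4 enzymes overlapped between genotypes: Nsdhl, Hsd17b7, Ebp and Sc5d, which work in demethylation, isomerisation and desaturation of the sterol, had log2 fold changes between -0.09 and 0.19. Ebp was split by library in both genotypes, at 15.1 and 21.5 CPM in inducible HIF-1α and 14.3 and 21.6 CPM in wild type. Over the 12 genes 7 fold changes were positive and 5 negative, with a median of 0.03. Their summed CPM was 899 and 909 in inducible HIF-1α and 1140 and 1161 in wild type, and without Lbr, a split made after its values were seen, it was 298 and 335 in inducible HIF-1α and 288 and 292 in wild type.

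Per kilobase of annotated exon, levels differed widely among the 32 genes. Lbr had the highest mean level, 123 CPM per kb in inducible HIF-1α and 181 in wild type, far above the next gene in either genotype. Idi1 was next in inducible HIF-1α at 34.2 CPM per kb, and held rank 3 in wild type at 18.8, close to Srebf1 (21.0 in inducible HIF-1α and 19.3 in wild type) and Insig1 (18.7 in inducible HIF-1α and 18.8 in wild type). Nr1h3 was lowest, at 0.177 CPM per kb in inducible HIF-1α and 0.302 in wild type. Mylip held rank 16 in inducible HIF-1α and rank 8 in wild type, and Sqle rank 10 in inducible HIF-1α and rank 23 in wild type. Exon length was the union over annotated transcripts, so genes with long alternative exons, such as Lss, are placed low.

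**Figure D3:**
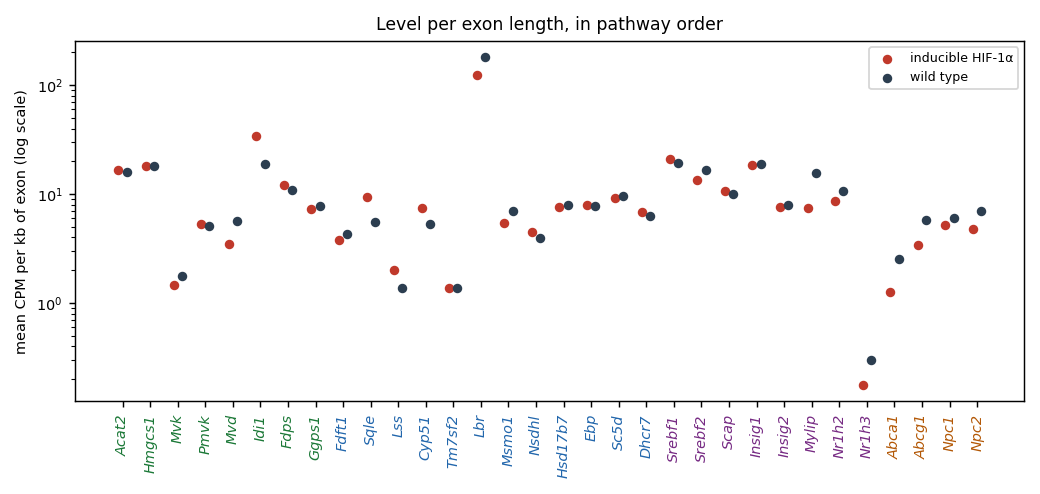
Mean CPM per kb of exon (log axis) for the 32 genes in pathway order, inducible HIF-1α left of wild type for each gene, symbols coloured by role. Lbr stands above all others and Nr1h3 below, and the marks of most genes nearly coincide.

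Among the sensors and regulators, the 95% intervals of the SREBP machinery genes all crossed 0. Those of Srebf1 (-0.48 to 0.71) and Scap (-0.37 to 0.56) do not exclude modest differences in RNA, and SREBP cleavage was not measured. Srebf2, which encodes SREBP-2, the main activator of the synthesis genes (chromosome 15, 82147269 to 82205379), had 94.5 and 98.1 CPM in inducible HIF-1α and 108 and 130 CPM in wild type. The groups did not overlap, but the log2 fold change of -0.31 ± 0.19 had an interval from -0.75 to 0.14 (edgeR adjusted p = 0.455). Srebf1, which encodes SREBP-1, the form tied to fatty acid genes and an LXR target, had 92.1 and 144 CPM in inducible HIF-1α, on either side of 102 and 116 CPM in wild type. Scap, the escort of both, had 83.1 and 75.02 CPM in inducible HIF-1α and 67.2 and 80.8 CPM in wild type. Insig1, a retention factor that is itself an SREBP target, had 59.5 and 56.1 CPM in inducible HIF-1α and 53.6 and 62.5 CPM in wild type, and Insig2, its paralog, known as a HIF-1α-induced gene in liver cells, had 24.99 and 27.4 CPM in inducible HIF-1α and 28.6 and 26.4 CPM in wild type. The groups overlapped for both, with fitted folds of 0.996 for Insig1 (95% interval 0.726 to 1.37) and 0.954 for Insig2 (0.676 to 1.35).

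Mylip, the ubiquitin ligase that degrades lipoprotein receptors (chromosome 13, 45389742 to 45411940), gave the largest fitted difference of the 32 genes. It had 26.6 and 22.2 CPM in inducible HIF-1α and 58.7 and 42.9 CPM in wild type. The groups did not overlap, and the wild-type libraries were further apart than the inducible HIF-1α ones. Its fitted fold was 0.479 (95% interval 0.321 to 0.715), a log2 fold change of -1.06 ± 0.24 (edgeR adjusted p = 0.107). DESeq2 (adjusted p = 0.00945) and edgeR's exact test (adjusted p = 0.00765) called it lower. Without a filter on low counts edgeR also called Mylip (adjusted p = 0.0311) and Abca1 (adjusted p = 0.0473), 2 of the 32 genes, against 4.22% of all genes tested that way.

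The LXR genes were measured less evenly. Nr1h2, which encodes the broadly expressed LXRβ, had 31.0 and 26.9 CPM in inducible HIF-1α and 30.2 and 41.1 CPM in wild type (-0.30 ± 0.24, edgeR adjusted p = 0.563). Nr1h3, which encodes LXRα, the form known from macrophages and liver, had 23 and 0 counts in inducible HIF-1α and 32 and 7 counts in wild type. A count of 0 allows up to 0.112 CPM in inducible HIF-1α library 2, and the interval of the log2 fold change, -4.23 to 2.67, leaves the direction undetermined (edgeR adjusted p = 0.827). Of the 8 regulators 2 had positive and 6 negative fold changes, with a median of -0.18; leaving out the wild-type libraries in turn gave -0.053 (replicate 1) and -0.094 (replicate 2), and it was -0.092 with at least 1 CPM in all 4 libraries.

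All 4 genes of efflux and lysosomal export had lower values in both inducible HIF-1α libraries than in either wild-type library, as did 28.2% of all tested genes. Their median log2 fold change was -0.66, and it was -0.89 without inducible HIF-1α replicate 1 and -0.27 without replicate 2. Abca1, the pump that loads cholesterol onto apolipoprotein A-I (chromosome 4, 53030789 to 53159988), had 13.0 and 13.2 CPM in inducible HIF-1α and 24.7 and 27.9 CPM in wild type. Both pairs were tight, and the fitted fold was 0.4995 (95% interval 0.345 to 0.723), a log2 fold change of -1.001 ± 0.22 (edgeR adjusted p = 0.103; DESeq2 adjusted p = 0.0137). Abcg1, which exports sterol to mature HDL (chromosome 17, 31057694 to 31117984), had 35.5 and 14.0 CPM in inducible HIF-1α and 39.6 and 44.8 CPM in wild type. The first of the inducible HIF-1α libraries was close to wild type and the other far below it, and the log2 fold change was -0.77 ± 0.41 (edgeR adjusted p = 0.398).

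The lysosomal pair, whose loss causes Niemann-Pick type C disease in humans, differed less. Npc2, the soluble carrier that hands over cholesterol inside the lysosome (chromosome 12, 84754559 to 84773112), had 29.8 and 22.1 CPM in inducible HIF-1α and 37.0 and 39.2 CPM in wild type (-0.56 ± 0.23, edgeR adjusted p = 0.292). Npc1, the membrane protein that receives it, had 57.8 and 58.9 CPM in inducible HIF-1α and 69.5 and 67.8 CPM in wild type (-0.24 ± 0.18, edgeR adjusted p = 0.545). The macrophage and monocyte marker sum was lower in inducible HIF-1α library 2 than in library 1 (353 against 716 CPM), the same order as for Abcg1 and Npc2, while Abca1 and Npc1 were about equal in the pair. Neutrophil (16106 in library 1 and 7070 in library 2), B cell (15.5 and 5.31) and T and NK cell marker sums (74.7 and 43.3) had that order too. So did stem and progenitor (1232 and 1044) and megakaryocyte marker sums (67.8 and 52.5). Erythroid (4555 and 8394) and proliferation marker sums (4451 and 5478) had the reverse order. Of the macrophage and monocyte sums, Ccr2 alone gave 510 CPM in inducible HIF-1α library 1 and 247 CPM in library 2. Among these markers, Cd68, C1qc and Siglec1 were higher in library 2. Called lower among the macrophage and monocyte markers were, for example, Adgre1 and Mrc1. Adgre1 had 3.25 and 2.17 CPM in inducible HIF-1α and 24.1 and 26.1 CPM in wild type. Mrc1 had 3.06 and 1.23 CPM in inducible HIF-1α and 44.1 and 40.2 CPM in wild type. The part of these cell types in the export gene values was not tested.

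**Figure D4:**
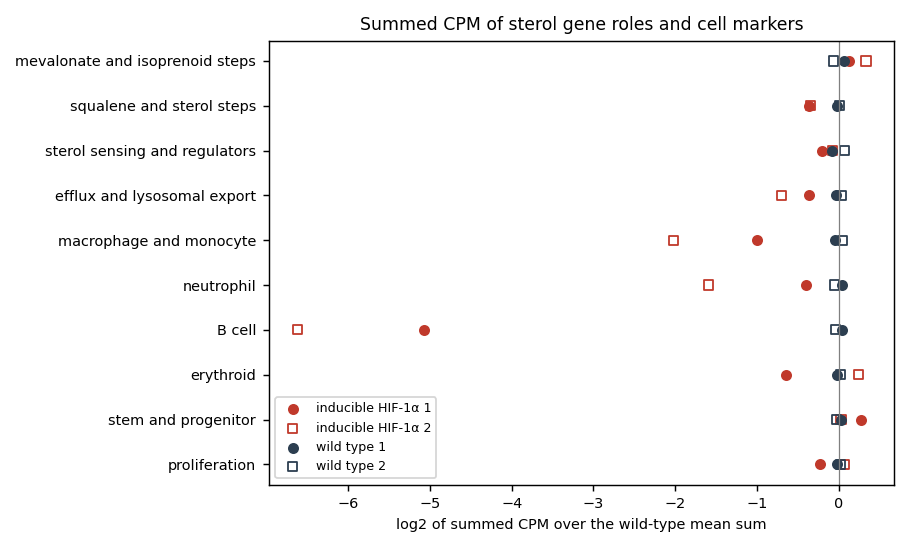
Log2 of the summed CPM of each gene role and cell marker list over the wild-type mean sum, by library (filled circles library 1, open squares library 2). Squalene and sterol steps, regulators, export genes and macrophage, neutrophil and B cell markers lie left of 0 in both inducible HIF-1α libraries, and the erythroid sums of those libraries lie on either side of it. For the regulators the genotypes overlap, with inducible HIF-1α library 2 at -0.0769 and wild-type library 1 at -0.0782. Most of the squalene and sterol sum is Lbr. Without Lbr it was 298 and 335 CPM in inducible HIF-1α and 288 and 292 CPM in wild type.

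The calls depended most on the inducible HIF-1α pair. Without inducible HIF-1α replicate 1, 11 of the 32 genes were called (34.4%), against 32.1% of all genes tested, and without inducible HIF-1α replicate 2, 5 were called (15.6%), against 11.5% of all genes. Idi1, Sqle, Mylip, Abca1 and Lbr were in both sets, with the directions of the full fit, and the first set added Lss, Cyp51, Mvd, Abcg1, Npc2 and Nr1h3. In these fits the lone library is assumed to vary like the other group. None of the 32 was called without either wild-type library, where 0.0138% (without replicate 1) and 0% (without replicate 2) of all genes were called. Of the genes given in full, Abcg1 moved most after Nr1h3, with a log2 fold change of -1.59 without inducible HIF-1α replicate 1 and -0.21 without replicate 2, and Lss had 0.81 and 0.28 in the same fits. Sqle stayed between 0.74 and 0.84 and Abca1 between -1.07 and -0.91 over 14 alternative fits.

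**Figure D5:**
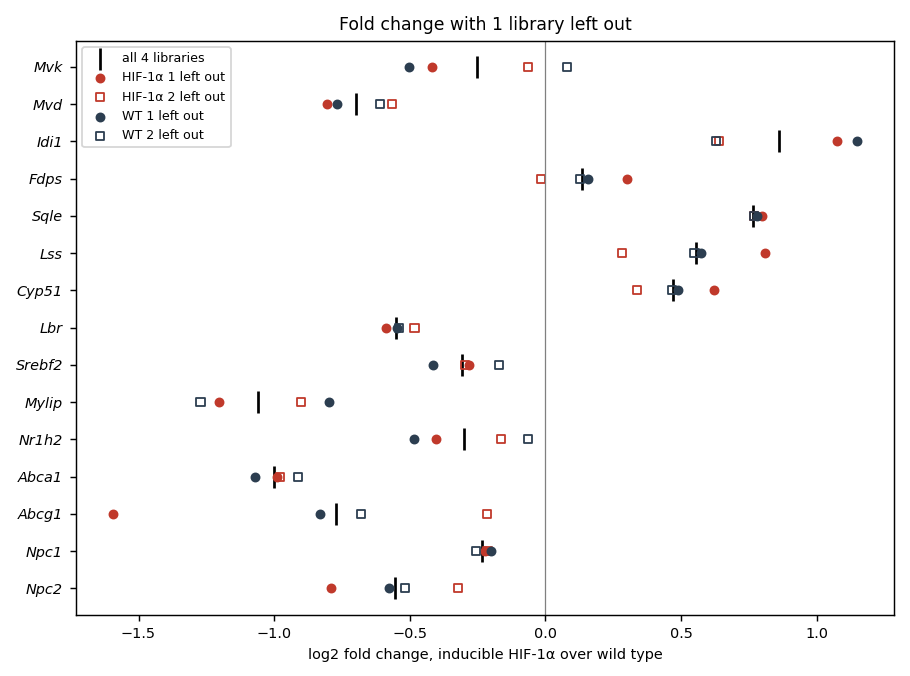
Log2 fold change (inducible HIF-1α over wild type) of 15 genes given in full, with all 4 libraries (black bars) and with each library left out in turn (symbols, circles for library 1 and squares for library 2 of the genotype named by colour); Nr1h3 is not drawn. Sqle, Lbr, Abca1 and Npc1 stay nearly in place, Abcg1 and Lss move with the inducible HIF-1α library left out, and Idi1 moves with any library left out.

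Genes around the pathway, listed by function, were described in the same fit. Of 12 genes for SREBP cleavage and sterol-linked degradation none was called (median 0.10), and the smallest p belonged to Syvn1, an endoplasmic reticulum ubiquitin ligase, with 52.2 and 62.2 CPM in inducible HIF-1α and 94.4 and 105.6 CPM in wild type (-0.81 ± 0.19, edgeR adjusted p = 0.119). None of 17 uptake, storage and transfer genes was called (median -0.21), and Lrp1, a large endocytic receptor, had the smallest p, with 13.7 and 5.69 CPM in inducible HIF-1α and 26.2 and 36.3 CPM in wild type (-1.69 ± 0.43, edgeR adjusted p = 0.132). Of 14 genes that use isoprenoids none was called and the median was 0.18. Fnta, a prenyltransferase subunit gene, had the smallest p in that list (0.42 ± 0.24, edgeR adjusted p = 0.427).

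Few genes listed under oxysterol synthesis passed the filter on low counts. Of 5 listed, 2 were tested and none was called, and Cyp27a1, the mitochondrial sterol 27-hydroxylase, had 2.13 and 1.27 CPM in inducible HIF-1α and 5.19 and 5.63 CPM in wild type (-1.67 ± 0.44, edgeR adjusted p = 0.140). Hsd3b7, the other gene tested, went the opposite way. It had 11.2 and 15.7 CPM in inducible HIF-1α and 7.69 and 8.40 CPM in wild type (0.74 ± 0.29, edgeR adjusted p = 0.269). Of 6 other LXR-regulated genes 5 were tested and none was called, with 1 positive and 4 negative fold changes and a median of -0.99. Arl4c, a small GTPase gene, had the smallest p there, with 10.4 and 3.14 CPM in inducible HIF-1α and 22.1 and 23.6 CPM in wild type (-1.75 ± 0.52, edgeR adjusted p = 0.176). At an unadjusted p of 0.05, where 16.9% of all genes passed, these 5 lists had 1 of 12, 3 of 17, 0 of 14, 2 of 2 and 2 of 5 tested genes.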

How the data were processed

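The authors deposited raw counts per Entrez gene for 4 libraries. Per the submitters' processing notes, bcl2fastq, CASAVA 1.8, TopHat, edgeR and the mm10 build were used; the sources used here do not give the counter, its annotation, or multi-mapping and strand settings. Entrez identifiers were looked up in RefSeq GRCm38.p6, and 81 had no symbol. The 32 genes and all lists were chosen with earlier results of these data known.

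Counts were tested in R 4.3.3 with edgeR 4.0.16: filterByExpr (minimum count 10), TMM scaling, and the quasi-likelihood F test across all 4 libraries with no block, adjusted by Benjamini-Hochberg over 14043 genes at 0.05. The SE is the log2 fold change divided by the square root of F, and 95% intervals use the same fit. CPM use TMM library sizes, and 3 counts, taken as the upper limit where 0 were seen, equal 0.112 to 0.138 CPM. Intervals for single libraries were not computed, and that limit covers counting error only. Given in full were genes called, with a log2 fold change of at least 1 in size, or among the 4 smallest p of their role; the other 16 are given more briefly. DESeq2 1.42.0, limma 3.58.1 (voom), edgeR's exact test, other scalings, filters and thresholds, a replicate block and leaving out each library were alternatives. The script was tested on simulated data. Replicates differed beyond sampling noise (chi-square per degree of freedom of 111.5 in inducible HIF-1α and 22.1 in wild type). Exon lengths and shared 50-base words came from GENCODE M21.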

Additional observations from a re-analysis of the deposited data

How the results depend on the processing

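Over all genes, 157 were called in the main fit, and the count was 97 with total-count scaling, 78 with at least 1 CPM in all 4 libraries, 747 without a filter, 971 with DESeq2, 1107 with edgeR's exact test, 10 at an adjusted p of 0.01 and 409 at 0.1. Leaving out 1 library gave 0 to 4669 genes. Among the 32 sterol genes, 0 were called in the main fit, 4 with DESeq2, 4 with edgeR's exact test, 2 without a filter, and 0 to 11 with 1 library left out; every other alternative gave 0. The replicate numbers in the titles do not state a pairing, and same-numbered libraries deviated with a correlation of 0.08; with them as a replicate block 381 genes were called and none of the 32. Hif1a had a log2 fold change of -0.63 to -0.13 with 1 library left out and was called only without inducible HIF-1α replicate 1 (edgeR adjusted p = 0.00376).

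Of the 16 genes given in full, 13 kept their direction in every alternative run. With 1 library left out Mvk ranged from -0.50 to 0.079, Fdps from -0.016 to 0.30 and Nr1h3 from -7.28 to 0.49. Reversed values were 0.079 for Mvk without wild-type replicate 2, -0.016 for Fdps without inducible HIF-1α replicate 2, and 0.49 and 0.25 for Nr1h3 without wild-type replicate 1 and without inducible HIF-1α replicate 2; the cause was not tested. The median of the squalene and sterol steps was 0.30 without inducible HIF-1α replicate 1 and -0.13 without replicate 2. Libraries of a genotype differed beyond counting noise, so depth is not the main limit except for Nr1h3: SEs of the log2 fold change were 0.18 to 0.49, and 1.45 for Nr1h3.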

Other observations

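Fatty acid synthesis, the branch that SREBP-1 serves, contained the single called gene of the lists around the pathway. That was 1 of 15 genes, against 1.12% of all tested genes. Scd1, a stearoyl-CoA desaturase that makes oleate for lipid esters, fell to 10.4 and 15.8 CPM in inducible HIF-1α, against 88.7 and 88.5 CPM in wild type (log2 fold change -2.76 ± 0.26, edgeR adjusted p = 0.016). Its paralog Scd2 had 373 and 394 CPM in inducible HIF-1α and 267 and 265 CPM in wild type, with no overlap (0.53 ± 0.17, edgeR adjusted p = 0.206). Acss2, which makes acetyl-CoA from acetate, had 36.4 and 75.6 CPM in inducible HIF-1α and 24.1 and 20.6 CPM in wild type (1.32 ± 0.35, edgeR adjusted p = 0.145), and Fads2, a desaturase of polyunsaturated fatty acids, had 49.0 and 90.6 CPM in inducible HIF-1α and 42.8 and 37.6 CPM in wild type. Of the 15 genes of this list 9 had positive and 6 negative fold changes, with a median of 0.05. At an unadjusted p of 0.05 in the edgeR test, 4 of 15 passed (3 higher and 1 lower), against 16.9% of all genes. Acss2, Fads2 and Scd2 were named after their values were seen.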
